A study of Mus musculus with 3 samples.

Results

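The 9 genes described here encode transcription factors of the pluripotency network of the mouse embryo. They were taken by symbol from a table of 23421 genes, and all 9 were found in it: the core factors *Pou5f1*, *Nanog* and *Sox2*, and the naive factors *Zfp42*, *Klf2*, *Klf4*, *Klf5*, *Esrrb* and *Tfcp2l1*. Their levels were compared in E6.5 embryos labelled as strain 129/SvEv, although the study allows that the background may have varied between its embryos. There was 1 RNA-seq library for each of 3 genotypes, wild type, tw18/+ and tw18/tw18. The tw18 haplotype carries a large deletion on Chr 17 that removes many genes, among them *Ppp2r1a*, the scaffold subunit of the phosphatase PP2A. The study ascribes the embryonic lethal phenotype to loss of *Ppp2r1a* alone, from a knockout and a transgenic rescue. By their labels, the tw18/+ and tw18/tw18 libraries carry the tw18 haplotype with the whole deletion, so differences between the genotypes do not concern 1 gene alone. The study lists *Pou5f1* among the genes of the t complex, the region of Chr 17 that t haplotypes carry in variant form. Whether variants there bear on its level was not tested. The study names matings of tw18/+ mice for its in situ embryos, and it does not state the mating behind the wild-type library. Wild-type embryos carry no tw18 chromosome. The labels call the tissue epiblast, the study describes the embryo proper with its surrounding visceral endoderm, cut from the extra-embryonic tissue that served for genotyping, and the number of embryos per library is not given in the sources used here. The study describes homozygous embryos as slightly younger in stage than their littermates, so genotype and stage cannot be told apart.

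The core factors keep cells pluripotent both before and after implantation. POU5F1 (OCT4) and SOX2 bind DNA side by side at joint sites, and NANOG acts with them on many of the same enhancers. The naive factors form a second circuit that is active in the inner cell mass and in embryonic stem cells, under the influence of LIF and STAT3, and that is switched down when the epiblast implants and becomes competent for gastrulation. *Zfp42* (*Rex1*) is the usual marker of that naive state, the Krüppel-like factors *Klf2*, *Klf4* and *Klf5* overlap in function there, *Esrrb* is an orphan nuclear receptor, and *Tfcp2l1* is a CP2-family factor downstream of STAT3. Several of these genes are also used by other tissues of the conceptus and uterus: *Sox2*, *Esrrb* and *Klf5* by extra-embryonic ectoderm, *Klf2* and *Klf4* by endothelium, and *Klf4* by epithelia and stroma.

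The promoter sequences of the core factors and of *Zfp42* are shown because they carry, or lack, the letters that OCT4 recognises. RefSeq promoter windows of GRCm38.p6 matched 8 of the 9 genes by symbol, and *Klf5* is the one without a window. Each run below lies upstream of the annotated start and stops before the first annotated exon. It reads 5′ to 3′ on the strand of the gene. Capitals mark the octamer core ATGCAAA or its reverse complement and, in *Nanog*, also the adjoining SOX core.
Nanog, chr6:122707239-122707488, plus strand: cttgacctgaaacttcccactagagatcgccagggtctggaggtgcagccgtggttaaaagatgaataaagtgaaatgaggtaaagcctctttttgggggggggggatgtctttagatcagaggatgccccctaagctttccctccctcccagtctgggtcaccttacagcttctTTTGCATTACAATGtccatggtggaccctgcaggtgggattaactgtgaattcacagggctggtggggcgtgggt
Sox2, chr3:34649745-34649994, plus strand: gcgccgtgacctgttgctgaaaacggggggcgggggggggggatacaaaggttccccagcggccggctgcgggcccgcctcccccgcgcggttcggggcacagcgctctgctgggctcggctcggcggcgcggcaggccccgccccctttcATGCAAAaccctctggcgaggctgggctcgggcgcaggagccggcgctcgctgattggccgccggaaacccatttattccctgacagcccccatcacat
Zfp42, chr8:43307010-43307259, minus strand: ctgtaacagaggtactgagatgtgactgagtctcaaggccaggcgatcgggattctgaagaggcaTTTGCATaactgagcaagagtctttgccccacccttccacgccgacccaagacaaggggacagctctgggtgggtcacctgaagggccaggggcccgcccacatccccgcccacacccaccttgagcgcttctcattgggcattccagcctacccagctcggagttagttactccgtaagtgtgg
Pou5f1, chr17:35505782-35506017, plus strand: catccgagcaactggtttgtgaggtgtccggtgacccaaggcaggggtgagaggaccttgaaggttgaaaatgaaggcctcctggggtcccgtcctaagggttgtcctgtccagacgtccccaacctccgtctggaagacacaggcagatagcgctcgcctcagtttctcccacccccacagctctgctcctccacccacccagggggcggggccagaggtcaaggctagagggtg

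The octamer core, searched on both strands, was found in the windows of *Nanog*, *Sox2* and *Zfp42*, against 4.12% of all 32851 windows of the same length. In the windows shown it lies 75 bases before the RefSeq start in *Nanog*, 99 in *Sox2* and 185 in *Zfp42*. In *Nanog* a SOX core, CATTGT, stands 1 base away from the octamer on the same strand, opposite to the gene, and only 2 of the 32851 windows, both of them overlapping windows of *Nanog*, hold this arrangement of letters. No octamer core lies in the windows of *Pou5f1*, *Klf2*, *Klf4*, *Esrrb* or *Tfcp2l1*. The GC box GGGCGG, a site of Krüppel-like and SP factors, was found in 5 of the 8 genes with a window (*Pou5f1*, *Sox2*, *Zfp42*, *Klf2* and *Klf4*) and in 32.7% of all windows. The CACC box CCACCC, another such site, was found in the windows of *Pou5f1*, *Nanog*, *Zfp42*, *Klf2* and *Esrrb*, again 5 of 8, and in 28.1% of all windows. In *Nanog* and *Klf2* the only match lies past the annotated start of the gene, ahead of a later RefSeq start, and so not upstream of the first exon. The ESRR element TCAAGGTCA, the letters bound by ESRRB, was in none of the 8 and in 0.387% of all windows. The percentages count windows, whereas a gene counts if any of its windows matches. *Pou5f1*, *Nanog* and *Esrrb* have more than 1 window, so these are unlike units. These matches describe letters only, and they split neither by core and naive factors nor by the direction of the differences given below.

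The deposited values are FPKM, fragments scaled to transcript length and to the depth of the library. From the spacing of low values, 1 fragment on a transcript of 1 kb was estimated to be worth 0.0684 FPKM in wild type, 0.0478 in tw18/+ and 0.0484 in tw18/tw18, which makes the latter libraries 1.43 and 1.41 times as deep as wild type and gives the approximate fragment numbers per gene. Intervals below are exact 95% Poisson intervals of a level or exact (Clopper-Pearson) intervals of a ratio, and they cover counting error only. With 1 library per genotype there is no spread between embryos, and no p-value is given. *Ppp2r1a* stood at 146 FPKM in wild type, 81.7 in tw18/+ and 12.8 in tw18/tw18. The order follows the labels, but a homozygous deletion of the gene would leave no transcript, and the library labelled tw18/tw18 holds about 596 fragments of it, 11.5-fold below wild type. The source of these fragments was not tested, and each direction given for tw18/tw18 is that of the library so labelled. The libraries also differ in other ways: *Lars2* was listed at 11199 FPKM in wild type, 9689 in tw18/+ and 0 in tw18/tw18. Differences are log2 ratios of FPKM with no pseudocount. A gene is called higher or lower where the log2 ratio is at least 1 in size and the higher FPKM of the pair is at least 1.

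In tw18/tw18, the 3 core factors were lower and all 6 naive factors were higher than in either other library. The study already reports lower levels of the 3 core factors in mutants from these same data, so their direction is not a separate result. Against wild type, the lower core factors differed by log2 ratios of -1.20 to -2.11 and the higher naive factors by 0.56 to 2.74. All 3 core factors were called lower, against 6.94% of the 12917 genes that reached an FPKM of 1 in either library. Of the naive factors, 5 of 6 were called higher, against 15.1% of those genes. One of them, *Klf2*, reached an FPKM of 1 only in tw18/tw18, so it could not have been called lower. Against tw18/+, all 3 core factors were again called lower (5.65% of 12846 genes) and all 6 naive factors higher (14.9%). In that pair *Klf2* and *Esrrb* reached an FPKM of 1 only in tw18/tw18, so neither could have been called lower. Both comparisons use the same tw18/tw18 library and are not independent. In RNA from pieces of tissue, fewer cells that express a gene and less RNA per cell cannot be told apart.

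**Figure D1:**
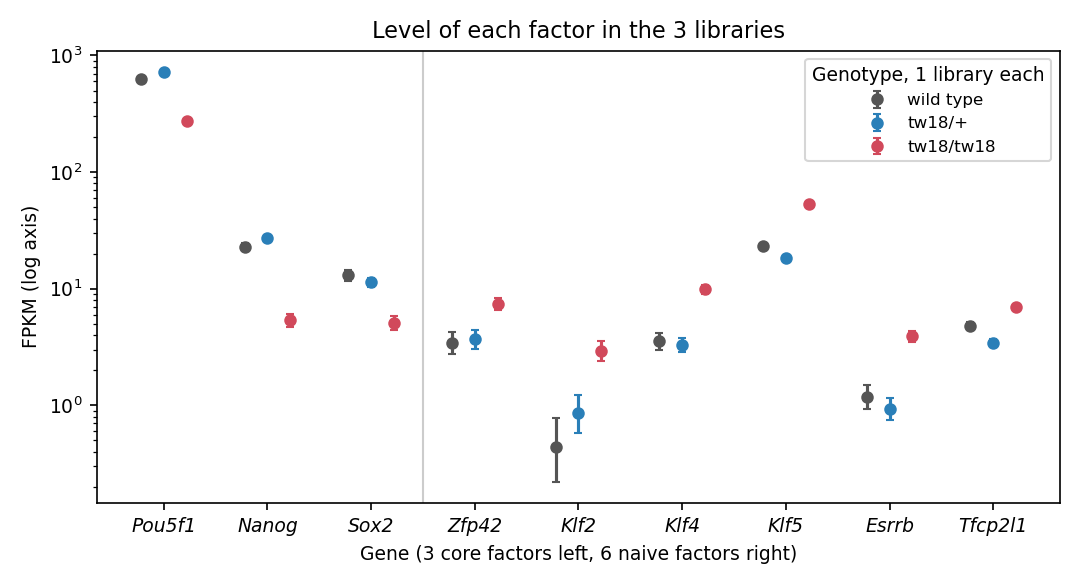
FPKM of each of the 9 genes (y axis, log scale) in wild type (grey), tw18/+ (blue) and tw18/tw18 (red), 1 library each, with exact 95% Poisson intervals that cover counting error only. The red point is the lowest of the 3 for *Pou5f1*, *Nanog* and *Sox2*, left of the grey line, and the highest of the 3 for the other 6 genes.

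*Pou5f1*, on Chr 17 from 35506018 to 35510772 (GRCm38), encodes OCT4, which is needed for a pluripotent inner cell mass. Its level was 628 FPKM in wild type, 721 in tw18/+ and 274 in tw18/tw18, from about 11129, 18283 and 6855 fragments. Its level in tw18/tw18 was 2.29-fold below wild type, a log2 ratio of -1.20 (interval -1.24 to -1.15), and it was 2.63-fold below tw18/+. It was still the highest of the 9 genes in each library and ranked 178 from the top of all genes in tw18/tw18, against 109 in wild type and 100 in tw18/+. Of its 50-base words, 10.1% also occur in other annotated genes, *Gm19553*, which overlaps it on the other strand, and *Gm5712*, and whether fragments were assigned by strand is not given in the sources used here.

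*Nanog*, on Chr 6 from 122707489 to 122714633, encodes the homeodomain factor that in the gastrulating embryo marks the posterior epiblast. Wild type held 23.0 FPKM, tw18/+ 27.1 and tw18/tw18 5.35, from about 694, 1169 and 228 fragments. The log2 ratio of tw18/tw18 was -2.11 (interval -2.33 to -1.89) against wild type and -2.34 against tw18/+, which makes *Nanog* the most reduced of the 9 genes. Its ratio against wild type stood at percentile 2.10 of the genes considered. Its intervals in tw18/tw18 against wild type and those of *Pou5f1* and *Sox2* do not overlap. The FPKM of *Pou5f1* was 27.3 times that of *Nanog* in wild type, 26.6 times in tw18/+ and 51.2 times in tw18/tw18. A share of 4.61% of its 50-base words occurs in other genes, the pseudogene *Nanog-ps1* among them.

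*Sox2*, on Chr 3 from 34650405 to 34652461, encodes the HMG-box partner of OCT4. Its FPKM was 13.0 in wild type, 11.3 in tw18/+ and 5.10 in tw18/tw18, from about 363, 452 and 201 fragments. The log2 ratio of tw18/tw18 was -1.35 (interval -1.61 to -1.10) against wild type and -1.15 (-1.40 to -0.91) against tw18/+. The interval of the second difference includes the threshold. *Sox2* is contained in the non-coding gene *Sox2ot*, which runs on the same strand and was listed at 0 in wild type, at 0.105 in tw18/+ and at 0.579 in tw18/tw18, lower than *Sox2* in each.

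**Figure D2:**
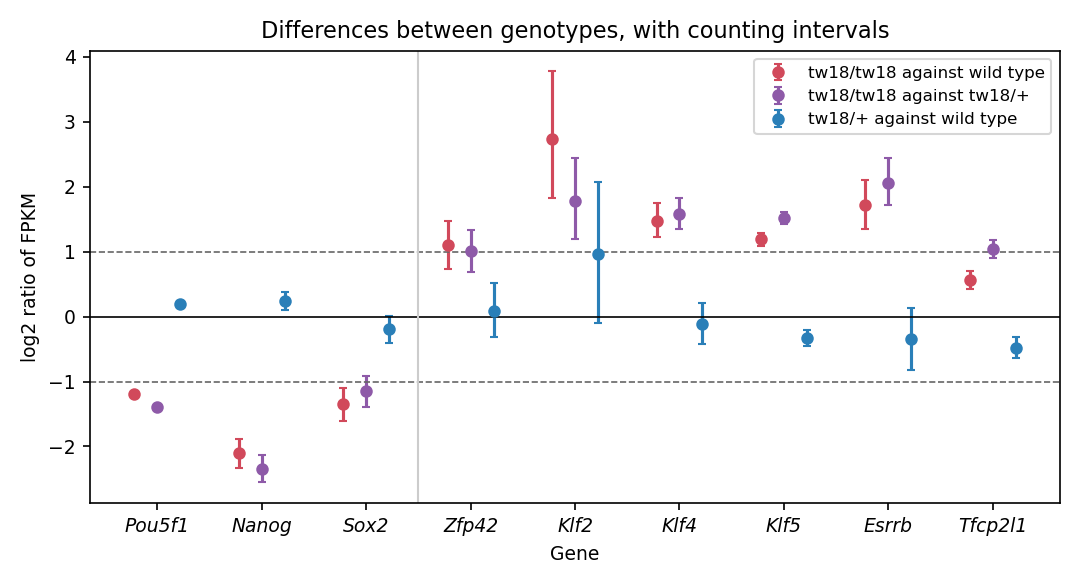
log2 ratios of FPKM (y axis) of the 9 genes for tw18/tw18 against wild type (red), tw18/tw18 against tw18/+ (purple) and tw18/+ against wild type (blue), with exact intervals of counting error and dashed lines at 1 and -1. The red and purple points lie below -1 for the 3 core factors and above 0 for the 6 naive factors, while each blue point lies between -1 and 1.

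Among the naive factors, *Klf5* was the most abundant in every library. *Klf5*, on Chr 14 from 99298691 to 99315036, is needed for the trophectoderm as well as the inner cell mass. It reached 23.3 FPKM in wild type, 18.5 in tw18/+ and 53.2 in tw18/tw18, from about 1091, 1241 and 3518 fragments. Its log2 ratio in tw18/tw18 was 1.19 (interval 1.09 to 1.29) against wild type and 1.52 against tw18/+. In wild type the level of *Klf5* could not be told from that of *Nanog* within counting error (21.9 to 24.7 against 21.3 to 24.8), in tw18/+ it was below *Nanog*, at 0.683 times its level, and in tw18/tw18 it was 9.95 times that of *Nanog*.

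*Klf4*, on Chr 4 from 55527143 to 55532466, is one of the factors used to reprogram fibroblasts. Its FPKM was 3.54 in wild type, 3.29 in tw18/+ and 9.87 in tw18/tw18, log2 ratios of 1.48 and 1.59 for tw18/tw18 against the other libraries in that order. *Klf2*, on Chr 8 from 72319033 to 72321656, is known as a flow-induced gene of endothelium besides its role in naive cells. It was the lowest of the 9 genes throughout, at 0.439 FPKM in wild type, 0.857 in tw18/+ and 2.93 in tw18/tw18, from about 11, 30 and 103 fragments. Its log2 ratio of 2.74 against wild type was also the least precise, with an interval of 1.83 to 3.77, and with a pseudocount of 1 it was 1.45. Against tw18/+ it was 1.77.

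*Esrrb*, on Chr 12 from 86361117 to 86521628, is required in trophoblast as well as in naive stem cells. Levels were 1.19 FPKM in wild type, 0.939 in tw18/+ and 3.91 in tw18/tw18, from about 72, 81 and 335 fragments. The log2 ratio of tw18/tw18 was 1.72 (interval 1.35 to 2.11) against wild type and 2.06 against tw18/+, and with a pseudocount of 1 these were 1.17 and 1.34. *Zfp42*, a zinc finger gene on Chr 8 from 43295063 to 43306980, was measured at 3.46 FPKM in wild type, 3.69 in tw18/+ and 7.41 in tw18/tw18. Its log2 ratios of 1.10 (0.73 to 1.48) and 1.01 (0.69 to 1.33) were close to the threshold, and their intervals include it. The pseudogene *Zfp42-ps1* shares 8.52% of its 50-base words.

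*Tfcp2l1*, on Chr 1 from 118627945 to 118685168, was the naive factor nearest to its wild-type level in tw18/tw18. Its FPKM was 4.76 in wild type, 3.42 in tw18/+ and 6.99 in tw18/tw18, from about 634, 652 and 1318 fragments. The log2 ratio of tw18/tw18 was 0.56 (interval 0.42 to 0.70) against wild type, under the threshold, and 1.03 (0.90 to 1.17) against tw18/+, just past it. This gene alone changed its call between both references, because its level was lower in tw18/+ than in wild type.

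The summed FPKM of the core factors was 664 in wild type, 760 in tw18/+ and 284 in tw18/tw18, while that of the naive factors was 36.7, 30.7 and 84.3. The ratio of both sums was thus 18.1 in wild type, 24.7 in tw18/+ and 3.37 in tw18/tw18. *Pou5f1* made up 94.6% to 96.3% of the core sum, and *Klf5* 60.3% to 63.5% of the naive sum. In wild type the levels ran from *Pou5f1* through *Klf5*, *Nanog*, *Sox2*, *Tfcp2l1*, *Klf4*, *Zfp42* and *Esrrb* to *Klf2*, with overlapping intervals for *Klf5* and *Nanog* and for *Klf4* and *Zfp42*. In tw18/+ *Nanog* (25.6 to 28.7) stood above *Klf5* (17.5 to 19.6), and *Zfp42*, *Tfcp2l1* and *Klf4* overlapped there, as did *Esrrb* and *Klf2*. In tw18/tw18 *Klf4* (9.09 to 10.7), *Zfp42* (6.52 to 8.40) and *Tfcp2l1* (6.62 to 7.38) stood above *Nanog* (4.67 to 6.09) and *Sox2* (4.42 to 5.85). The intervals of *Nanog* and *Sox2* overlap there, as do those of *Zfp42* and *Tfcp2l1* and, at the bottom, of *Esrrb* and *Klf2*.

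**Figure D3:**
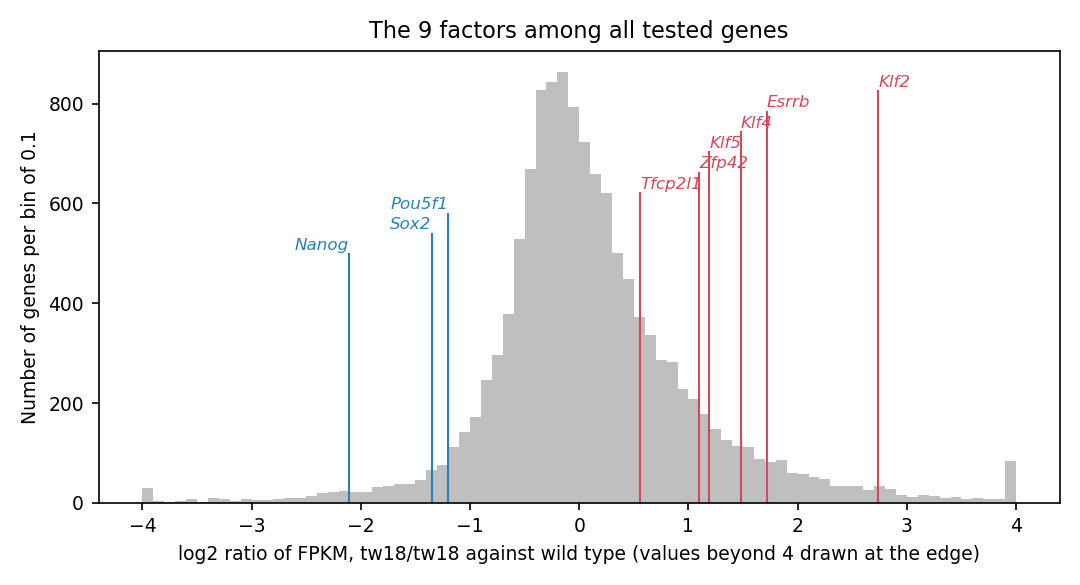
Number of genes (y axis) by log2 ratio of FPKM in tw18/tw18 against wild type (x axis, bins of 0.1, values beyond 4 drawn at the edge) for genes above 0 in both libraries that reach 1 FPKM in one of them, with the core factors marked in blue and the naive factors in red. *Nanog*, *Sox2* and *Pou5f1* lie in the left tail, and the naive factors lie to the right of the centre, from *Tfcp2l1* at 0.56 to *Klf2* at 2.74.

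Between the tw18/+ and wild-type libraries, no log2 ratio of the 9 genes reached the threshold. Of the 8 that reached an FPKM of 1 in either library, 0 were called, against 9.72% of 12426 genes. With so few genes, 0 of 8 is near that share and shows nothing particular to them. *Klf2* stayed under that level, and its log2 ratio of 0.97 had an interval of -0.11 to 2.08. The other ratios ranged from -0.48 in *Tfcp2l1* to 0.24 in *Nanog*. The differences of *Pou5f1* (0.20, interval 0.17 to 0.23), *Nanog* (0.24, 0.10 to 0.37), *Klf5* (-0.33, -0.45 to -0.21) and *Tfcp2l1* (-0.48, -0.64 to -0.32) exceeded counting error, and how large they are against differences between embryos cannot be seen with 1 library each.

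Patterns close to those of the core factors were sought among 7041 genes above 0 in every library and with an FPKM of at least 10 in some library. Likeness was the distance in the pair of log2 ratios against wild type, over 3 libraries. Nearest to *Pou5f1* were *Zik1*, *Fam195a*, *Tmem237*, *Prmt6* and *Pus3*, at distances of 0.064 to 0.12. *Nanog* had no gene within 0.1, and its nearest were *Rragb* (0.15), *Ppp1r1a*, *Gm12669*, *Tdgf1* (0.32) and *Socs2*. Of these, *Tdgf1* encodes the Nodal co-receptor Cripto. Nearest to *Sox2* were *Lin28b*, *Cdk18*, *Zic2*, *Mdfi* and *Usp44*, all within 0.058. *Lin28b* is an RNA-binding repressor of let-7 microRNAs and *Zic2* a zinc finger factor of the epiblast.

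Other genes listed with the naive factors were not uniform, and the list is not confined to the naive state. *Fgf4*, *Tdgf1* and *Utf1* are also among the epiblast markers given below. Of the listed genes that reached an FPKM of 1, the 3 below 0 in tw18/tw18 against wild type were *Tdgf1*, *Utf1* and *Lin28a*. Of 16 genes listed as the wider naive network, 10 reached an FPKM of 1 in wild type or tw18/tw18, and 5 were called higher and 1 lower in tw18/tw18, where 15.1% and 6.94% of all genes considered were. Against tw18/+, 3 were called higher and 1 lower with a median log2 ratio of 0.34, and *Fgf4* (0.99) and *Zfp57* (0.44) were not among them. The median against wild type was 0.91 over the 9 genes above 0 in both, against -0.016 over all genes. *Dppa2*, which with *Dppa4* primes chromatin of early embryonic genes, went from 1.34 FPKM in wild type through 5.21 in tw18/+ to 12.1 in tw18/tw18, and its log2 ratio in tw18/+ was already 1.96. *Dppa4* had 8.69, 13.0 and 16.4, a log2 ratio of 0.91 in tw18/tw18 that was not called. *Dppa3* (*Stella*), a gene of oocytes, naive cells and germ cells, was listed at 0 in wild type and tw18/+ and at 1.34 in tw18/tw18.

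The T-box factor *Tbx3* (1.05), the growth factor *Fgf4* (1.01) and the imprinting regulator *Zfp57* (1.26) were also called higher against wild type, by the log2 ratios given. *Tdgf1* was the gene called lower, at 74.5 FPKM in wild type, 72.0 in tw18/+ and 19.2 in tw18/tw18. *Lin28a* (-0.46), *Utf1* (-0.53) and *Dppa5a* (0.42) were not called. *Nr0b1*, *Nr5a2*, *Gbx2*, *Klf17* and *Prdm14* had an FPKM under 1 in each library, and *Tcl1* was listed at 0 in all 3.

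Of the signalling inputs, 4 of 13 genes were called higher and 0 lower against wild type (15.1% and 6.94% of all genes), with a median log2 ratio of 0.31. Against tw18/+, 7 of 13 were called higher (14.9% of all genes) and 0 lower, with a median of 1.20. The kinase *Jak1* had an FPKM of 12.5, 14.6 and 43.1 in wild type, tw18/+ and tw18/tw18. *Stat3*, the LIF effector that drives *Klf4* and *Tfcp2l1* in stem cells, had 7.44, 8.38 and 20.0, a log2 ratio of 1.43. *Lif* was listed at 0 in wild type and at 1.39 in tw18/tw18, and *Bmp4* had a log2 ratio of 1.25. The receptor subunits *Lifr* (-0.049) and *Il6st* (-0.47) and the STAT3 target *Socs3* (0.27) were not called against wild type. *Il6st* and *Socs3* were lowest in tw18/+, and against that library they were called higher by 1.31 and 1.20.

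**Figure D4:**
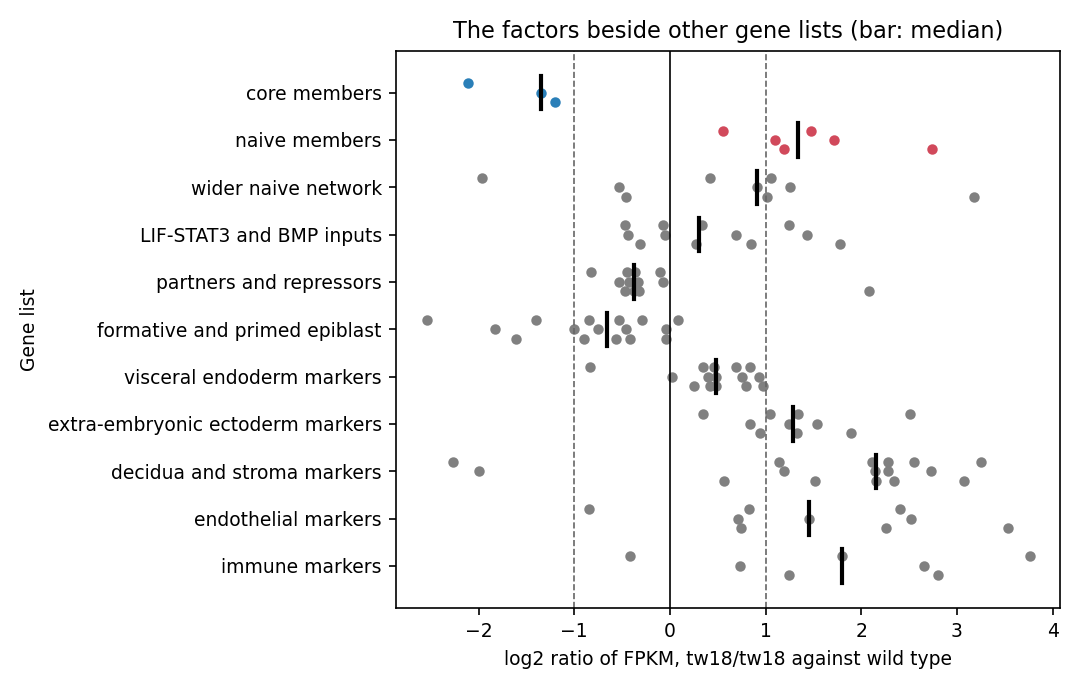
log2 ratio of FPKM in tw18/tw18 against wild type (x axis) for each gene of the lists named on the y axis, with a black bar at the median of each list and dashed lines at 1 and -1. Core factors (blue) have their median at -1.35 and naive factors (red) at 1.33, and the medians of the extra-embryonic ectoderm, decidua and stroma, endothelial and immune markers also lie above 1.

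Cofactors and repressors of the core factors had small ratios. In the list of 12, none was called lower and 11 had a ratio below 0, with a median log2 ratio of -0.37. The partners *Sall4* (-0.37) and *Zfp281* (-0.33), the *Pou5f1* repressor *Nr6a1* (-0.82) and the repressor of naive genes *Tcf7l1* (-0.43) were among them. *Nr2f2*, an orphan receptor that opposes *Pou5f1* and is abundant in stroma, was the gene called higher, with an FPKM of 4.50, 4.79 and 19.1 in wild type, tw18/+ and tw18/tw18.

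Formative and primed factors mark the epiblast states that follow naive pluripotency. Of 16 such genes, 5 were called lower in tw18/tw18 (6.94% of all genes) and 0 higher, 15 had a ratio below 0, and the median log2 ratio was -0.66. *Zic2* (-1.40), *Zic5* (-1.61), *Foxd3* (-1.83) and the low gene *Tcf15* (-2.54) were called, and *Dnmt3b*, at 719 FPKM in wild type, 733 in tw18/+ and 359 in tw18/tw18, just passed the threshold. *Otx2* (-0.29), which redirects OCT4 to epiblast enhancers, *Fgf5* (-0.46) and *Pou3f1* (-0.89) were not called. *Sox3*, the close relative of *Sox2*, had an FPKM of 8.94, 8.61 and 8.69, so that its level was below that of *Sox2* in wild type and above it in tw18/tw18.

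The Krüppel-like family binds GC and CACC boxes through shared zinc fingers. Of its 17 genes, 14 reached an FPKM of 1 in wild type or tw18/tw18, and *Klf2*, *Klf4* and *Klf5* were the 3 called higher, beside 15.1% of all genes. *Klf12* (-1.20) was called lower, and the median log2 ratio was 0.25. *Klf3* had a ratio of 0.80, *Klf11* of 0.82 and *Klf9* of 0.44, while *Klf6* (-0.046), *Klf10* (0.096) and *Klf13* (0.16) were close to 0. *Klf2*, *Klf4* and *Klf5* together held 22.6% of the summed FPKM of the family in wild type, 18.2% in tw18/+ and 37.9% in tw18/tw18.

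**Figure D5:**
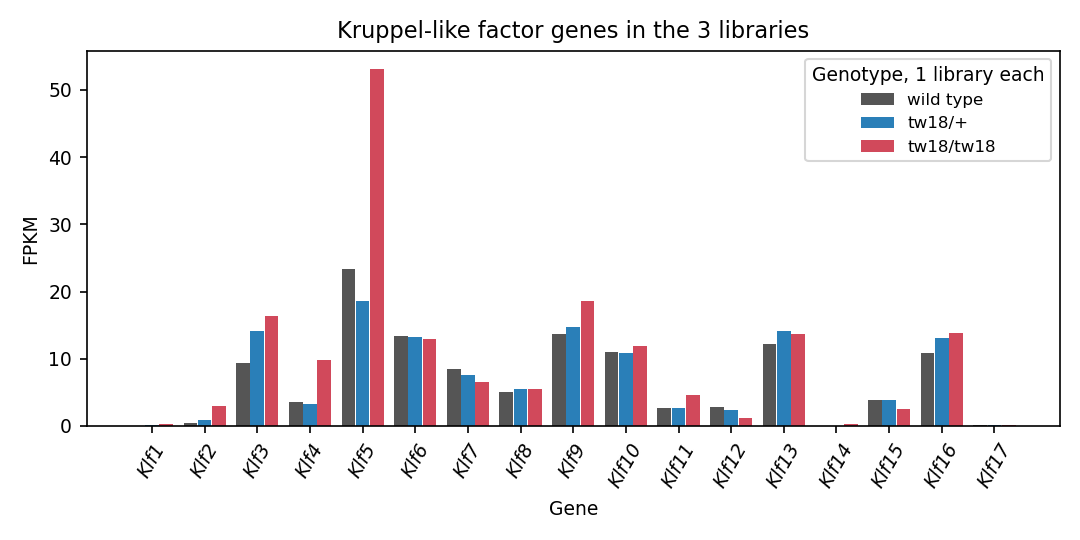
FPKM (y axis, from 0) of the 17 Krüppel-like factor genes in wild type (grey), tw18/+ (blue) and tw18/tw18 (red), 1 library each. *Klf5* is the tallest bar in each library, and it stands at 53.2 in tw18/tw18 while *Klf6*, *Klf8*, *Klf10* and *Klf13* are nearly level across the genotypes.

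Markers of several tissues also differed between the libraries. The 10 epiblast markers that are no members, among them *Otx2*, *Fgf5*, *Utf1* and *Nodal*, had a summed FPKM of 1353 in wild type, 1400 in tw18/+ and 784 in tw18/tw18. Against wild type 9 of 10 were lower in tw18/tw18, 2 of them called (*Dnmt3b* and *Tdgf1*), beside 6.94% of all genes. The median log2 ratio was -0.52. *Fgf4* was the one called higher, and 7 of the 10 also stand in the lists of naive or formative genes above. Relative to this median, *Nanog* stayed past the threshold (-1.59), but *Pou5f1* (-0.68) and *Sox2* (-0.83) did not. All 6 naive factors were then called higher, so that the split of 3 lower and 5 higher became 1 lower and 6 higher. Over all genes this scaling turned 1946 higher and 896 lower into 3522 and 447, and equal FPKM sums gave 2493 and 631.

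The 12 markers of extra-embryonic ectoderm and trophoblast had a summed FPKM of 155 in wild type, 105 in tw18/+ and 306 in tw18/tw18, most of it from *Prl3d1*. Of them 10 reached an FPKM of 1, and 7 were called higher against wild type and 0 lower, beside 15.1% and 6.94% of all genes. The median log2 ratio was 1.29. *Elf5* (1.93, 1.42 and 4.85 in the same order) and *Tfap2c* (6.36, 5.99 and 18.4) were lowest in tw18/+, while *Gata3* (1.89, 3.45 and 10.8) and *Hand1* (9.31, 14.0 and 34.6) were lowest in wild type, and no marker of the list was at 0. The dissection was meant to remove this tissue, and the part of these markers in the differences of the naive factors was not tested. Of the members named above as genes of extra-embryonic ectoderm, *Sox2* was lower in tw18/tw18, and *Esrrb* and *Klf5* were higher.

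Endothelial markers (11) had a summed FPKM of 45.0, 30.2 and 104 in wild type, tw18/+ and tw18/tw18, with only *Plvap* at 0, in wild type. Of the 10 that reached an FPKM of 1, 6 were called higher against wild type and 0 lower, with a median log2 ratio of 1.45. Over all genes 15.1% were called higher and 6.94% lower, also for the lists that follow. For the 16 markers of decidua and stroma 13 were called higher and 2 lower in tw18/tw18, with a median of 2.15, and *Col1a1* had an FPKM of 35.9, 32.0 and 174. The prolactins *Prl8a2* and *Prl3c1* were the exceptions, since *Prl8a2* was highest in wild type, at 1504 against 155 and 377. Summed without *Prl8a2*, the list had an FPKM of 273, 177 and 681. Immune markers (10) summed to 19.7, 16.5 and 46.5, with *C1qa* and *Nkg7* at 0 in wild type and *Nkg7* in tw18/+. Of the 7 that reached an FPKM of 1, 5 were called higher and 0 lower, with a median of 1.79. Visceral endoderm markers (15) had 14 ratios above 0, none called, a median of 0.48 and summed FPKM of 1126, 1120 and 1554. Against tw18/+, 10 of 10 endothelial and 15 of 16 decidua and stroma markers were called higher, where 14.9% of all genes were. So were 6 of 8 immune and 3 of 15 visceral endoderm markers, and 1 immune marker was called lower. The part of these tissues in the higher values of *Klf2*, *Klf4* and the other naive factors was not tested.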

How the data were processed

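RNA of 3 E6.5 samples, 1 per genotype, was sequenced as 50 bp paired-end reads from TotalScript libraries. Alignment by the authors used TopHat and the mm10 genome (GRCm38), and the deposited FPKM values per gene come from Cuffdiff. The submitters' processing notes also list Bowtie 1.0.0 and Cufflinks 2.2.1, and the annotation is not given in the sources used here. FPKM values are relative to the rest of a library. The 9 genes and the gene lists were chosen with earlier results of these data known. Ratios and intervals were computed with scipy 1.17.1 and pandas 2.3.3 under Python 3.11.15, and plots were drawn with matplotlib 3.10.9.

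Depth was estimated from 162, 237 and 178 low FPKM values (wild type, tw18/+, tw18/tw18) of genes with 1 transcript, less 150 bp for the fragment; 70.9% to 74.1% of them came within 0.2 of a whole fragment number, so fragment numbers, taken with the longest RefSeq-matched GENCODE M21 transcript, are approximate. PCR fragments are not independent molecules. A gene at 0 counted as called where the other FPKM was at least 1, and was left out of medians. Named genes are the 9 members, genes of the lists, and the 5 nearest to each core factor; *Ppp2r1a*, *Lars2*, *Sox2ot*, *Gm19553* and the pseudogenes are named besides. Calls were tested on simulated data only, and the accuracy of the calls on the 9 members was not tested. Alternatives were pseudocounts, filters, scalings and a higher threshold.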

Additional observations from a re-analysis of the deposited data

How the results depend on the processing

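No direction of any of the 9 genes in tw18/tw18 was reversed by an alternative, but few alternatives could have done so. A pseudocount, a filter or a threshold cannot reverse a direction. The scalings subtract shifts of -0.049 to -0.57, smaller in size than each core ratio, and they move the naive ratios further up. Of 135 single values recomputed with another pseudocount or scaling, 101 stayed within their counting interval and 34 did not. Filters cannot move a ratio. Against wild type, requiring an FPKM of at least 5 left 3 of 5 genes called higher, because *Klf2* and *Esrrb* do not reach it. Of these 3, *Zfp42* and *Klf4* reach it only in tw18/tw18. Over all genes that reach it, 8.96% were called higher. With a log2 threshold of 2, only *Nanog* (1 gene of 3) was called lower and only *Klf2* (1 of 5) higher. Over all genes 2.28% and 5.76% were. Against tw18/+ the genes called were *Nanog* (1 of 3) and *Esrrb* (1 of 6), beside 1.52% and 4.75% of all genes. Relative to the epiblast markers, 1 gene, *Nanog*, was called lower in both comparisons. Over all genes 3.46% were against wild type and 2.37% against tw18/+. Rescaling to equal FPKM sums subtracts a shift of -0.21 against wild type and -0.25 against tw18/+, and *Pou5f1* (-0.99) and *Sox2* (-0.91 against tw18/+) then fall just under the threshold. With a pseudocount of 1, *Klf2* (1.45 and 1.08) and *Esrrb* (1.17 and 1.34) had smaller ratios against wild type and tw18/+, so that *Esrrb* fell below *Klf5* (1.47) against tw18/+. *Zfp42* was then not called against wild type (0.92), nor *Zfp42* (0.84) and *Tfcp2l1* (0.86) against tw18/+. The call of no gene in tw18/+ against wild type was the same in every alternative. With a pseudocount of 0.1, *Zfp42* (0.99) was not called against tw18/+. With 1 library per genotype no library could be left out. No paired analysis was possible because each genotype has 1 library. Depth limits *Klf2* most, with about 11 fragments in wild type.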

Other observations

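Relatives of the other members were listed too, and 10 of 14 reached an FPKM of 1 in wild type or tw18/tw18, with 2 called higher and 0 lower, beside 15.1% and 6.94% of all genes. *Esrra*, the widely expressed relative of *Esrrb*, was found at 2.58 FPKM in wild type, 5.88 in tw18/+ and 9.91 in tw18/tw18, so that it was already called higher in tw18/+ by a log2 ratio of 1.19, where *Esrrb* was not. *Pou2f3*, a factor of tuft cells, was the other, with an FPKM of 0.201, 0.679 and 1.26. *Pou2f1* (-0.34), *Ubp1* (-0.49), *Tfcp2* (-0.53) and *Yy1* (-0.35), relatives of *Pou5f1*, *Tfcp2l1* and *Zfp42*, were not called, and the median log2 ratio of the list was -0.19.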
